A study of Mus musculus with 19 samples.

Results

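Mammary tumours labelled as lacking both Itgb1 and Itgb3 were set against tumours labelled as lacking Itgb3 alone. The genotype label chose the members: 6 labelled double knockout (DKO) tumours and 4 Itgb3 knockout tumours, 10 of the 19 arrays in the series. DKO tumours came from NIC mice with floxed alleles of both Itgb1 and Itgb3, and the Itgb3 knockout tumours from NIC mice in which Itgb3 alone was floxed. NIC mice carry a transgene under the MMTV promoter that yields activated ErbB2 and Cre recombinase in the same cells, so every tumour carries the same oncogene, and floxed genes are removed in the cells where that promoter is active. Removal in other cells of the tumour, such as fibroblasts, vessels and leukocytes, was not measured. The remaining arrays were 4 tumours with Itgb1 alone floxed (Itgb1 knockout) and 5 NIC tumours with intact integrins (control), and they entered the fit for its estimate of the spread. RNA came from flash frozen tumours at end burden, and ages are not in the labels. The labels name tumours and do not say that each came from its own animal, so the tumours may not be independent. The spread behind each p-value of the fit is that between tumours, pooled over the 19 arrays, and may not be that between animals.

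Integrins are receptors made of 1 alpha and 1 beta subunit that anchor cells to the extracellular matrix and signal through focal adhesion proteins. The beta 1 subunit pairs with many alpha subunits to bind collagen, laminin and fibronectin, while beta 3 pairs with the alpha v subunit and, in platelets, with alpha IIb, to bind vitronectin, fibronectin and fibrinogen. In mammary epithelium, beta 1 integrins hold luminal and myoepithelial cells to the basement membrane and are known to support the growth of ErbB2-driven tumours.

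The deposited values are log2 intensities of a whole-transcript array, normalized by the authors. A unit step is a doubling, and levels are compared between tumours for 1 gene, never between genes. Array medians were 4.32 to 4.34 in the DKO tumours and 4.41 to 4.48 in the Itgb3 knockouts, against 4.32 to 4.47 in the Itgb1 knockouts and 4.32 to 4.46 in control. The mammary epithelial genes Krt8, Krt18, Epcam and Cdh1 were bright on all 10 arrays, with Epcam at 11.1 to 11.3 in the DKO tumours and 11.2 to 11.3 in the Itgb3 knockouts. The T cell gene Cd3d, the B cell genes Cd79a and Ms4a1 and the adipocyte gene Adipoq stayed under the intensity filter of 4.38 on all 10. The other T cell gene, Cd3e, was above it on all 10 (5.18 to 6.83 in DKO tumours, 4.85 to 6.3 in Itgb3 knockouts). The other adipocyte gene, Plin1, was under it in 1 DKO tumour only. The skeletal muscle genes Ckm and Acta1 and the platelet genes Itga2b, Pf4 and Gp9 were above it on all 10. The fibroblast gene Col1a1, the endothelial gene Pecam1 and the macrophage gene Csf1r were above the filter in every tumour, so the profiles mix epithelium with stroma. Another fibroblast gene, Dcn, was under it in 1 Itgb3 knockout.

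The gene that separates the 2 genotypes by design is Itgb1, on chromosome 8. Its log2 level ran from 7.93 to 9.20 (median 8.15) in the labelled DKO tumours and was 9.95, 9.81, 10.15 and 10.26 in the Itgb3 knockouts. Every DKO tumour lay below every Itgb3 knockout tumour, and the highest of them, at 9.20, was DKO replicate 5. Itgb1 fell by 1.72 on the log2 scale in the DKO tumours (SE 0.20, 3.30-fold lower, limma adjusted p = 0.00055). The exact two-sided permutation p over the 10 tumours was 0.00476, the smallest that 210 splits allow (0.00714 adjusted over the 3 genes so tested). Itgb1 passed in all 28 other settings tried.

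Itgb3, on chromosome 11, is floxed in both groups. Its level ran from 7.69 to 8.56 (median 8.20) in the labelled DKO tumours and was 6.34, 7.31, 6.97 and 7.40 in the Itgb3 knockouts. All 6 DKO tumours lay above all 4 Itgb3 knockouts, and Itgb3 rose by 1.13 (SE 0.24, 2.19-fold, limma adjusted p = 0.0223, exact two-sided permutation p = 0.00476, 0.00714 after adjustment). DKO tumours averaged 8.13 ± 0.39 (SD, n = 6) and Itgb3 knockouts 7.01 ± 0.48 (n = 4), beside 8.24 ± 0.51 in Itgb1 knockouts (n = 4) and 8.12 ± 0.25 in control (n = 5). The mean was therefore lowest in the Itgb3 knockouts, though no gene, Itgb3 included, passed between Itgb3 knockouts and control. In the tumours labelled as lacking Itgb3 the mean was near that of control. Bulk RNA also holds transcript from cells where the promoter is not active. Why measured Itgb3 was not low in these labelled DKO tumours was not tested. The labels do not give the floxed exons of Itgb1 or Itgb3, and it was not checked which exons either probe set covers. For that reason these tumours are called labelled DKO, and every direction below carries this limit: the groups differ in measured Itgb3 as well as in Itgb1. Over all genes the call for Itgb3 was lost without DKO replicate 1 (1.08, adjusted p = 0.0525), Itgb3 knockout replicate 1 (0.91, adjusted p = 0.0907) or Itgb3 knockout replicate 3 (1.12, adjusted p = 0.0559). Erbb2, the mouse gene of the driving receptor, ran from 9.42 to 10.09 (median 9.88) in the labelled DKO tumours and was 9.77, 9.999, 9.55 and 9.56 in the Itgb3 knockouts. The groups overlapped, with a difference of 0.05 (SE 0.18, exact two-sided permutation p = 0.757, also after adjustment).

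**Figure D1:**
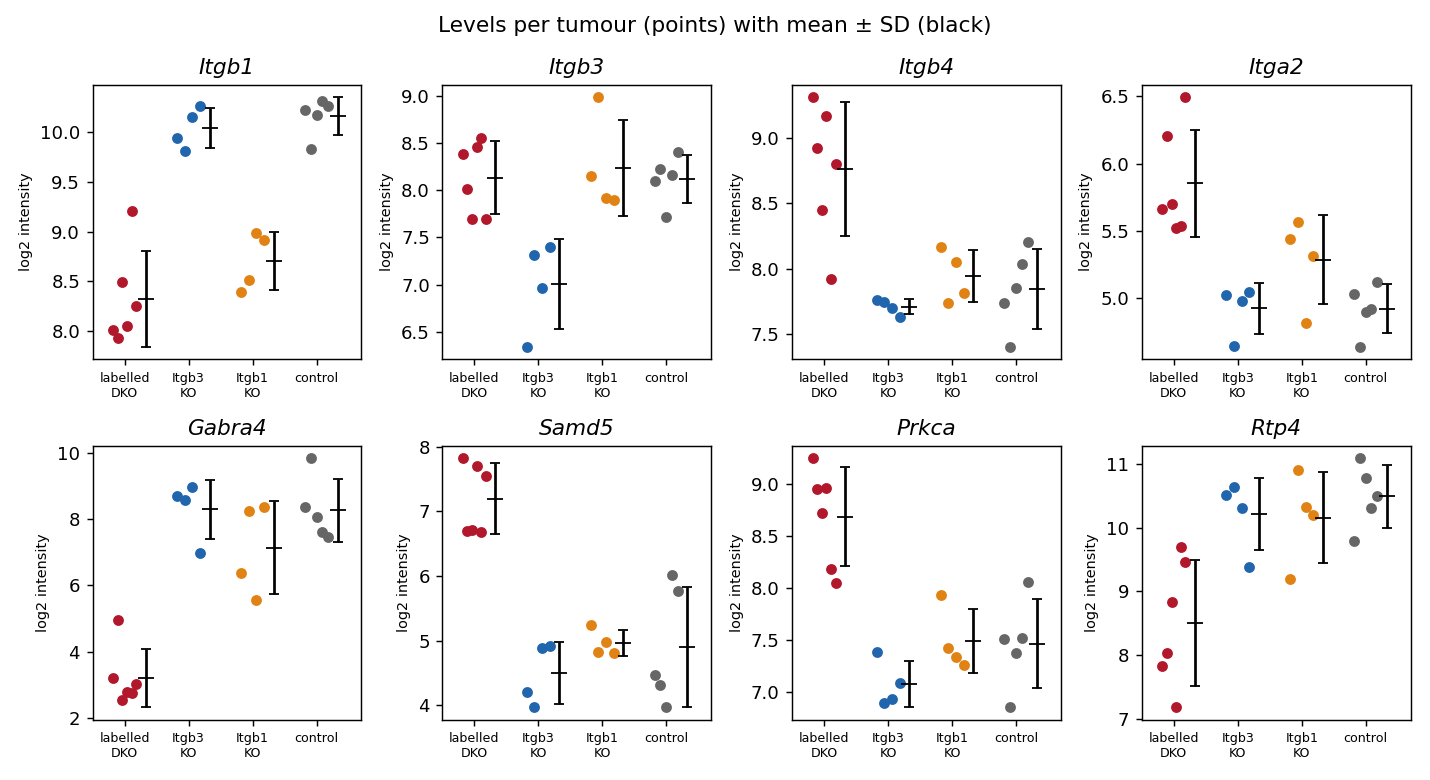
Log2 intensity of 8 genes (vertical axes) in each tumour of the labelled DKO, Itgb3 knockout, Itgb1 knockout and control groups (points), with the group mean ± SD beside them in black. Itgb1 lies between 7.93 and 9.20 in the labelled DKO tumours, below all 4 Itgb3 knockouts, and Itgb3 lies above them.

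Across the array, 408 of 14231 genes passed in labelled DKO against Itgb3 knockout tumours (2.87%, limma, adjusted p under 0.05). Of these 338 were higher (2.38%) and 70 lower (0.492%). At an unadjusted p under 0.05 there were 3009 of the 14231 genes. Counts at that threshold for the gene lists below are to be read beside this share. A further count needs no model: 837 genes had all 6 DKO tumours above all 4 Itgb3 knockouts (5.88%) and 437 had all 6 below (3.07%). The whole set of genes was nearly balanced, with 7789 of 14231 above 0 (54.7%) and a median difference of 0.03.

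The number of passing genes rested on a few tumours. It was 56 without Itgb3 knockout replicate 1, 66 without replicate 4, 119 without replicate 2 and 126 without replicate 3, and 132 and 227 without DKO replicate 1 or 2. Without DKO replicates 3 to 6 in turn it was 289, 389, 453 and 458. The excess of higher genes also moved with the level: the median difference was −0.10 in the dimmest of 5 equal bins of genes and 0.09 in the middle bin, and genes that were higher had a median level of 7.05 against 5.22 for genes that were lower. Centring each array on its median gave 1173 higher and 53 lower (95.7% of calls higher, against 82.8% as deposited), with a median over all genes of 0.14, and quantile normalization gave 181 higher and 53 lower. The part of the array medians in the split was not tested beyond these 2 scalings. Of 63 passing genes that the text can name, 16 passed in every setting that tested them. Among these were Itgb1, Gabra4, Lhx2, Samd5, Prkca, Slc22a23, Jag1, Tgfa, Igfbp4 and Hspg2. Gabra4, Lhx2, Samd5 and Prkca were each tested in 27 of the 28 settings. Without Itgb3 knockout replicate 1 or 4, 42 of the 63 lost their call each time, and without replicate 2 or 3 the losses were 36 and 31. Without DKO replicates 1, 2 and 3 in turn they were 32, 30 and 19, and 13, 6 and 6 without replicates 4 to 6.

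**Figure D2:**
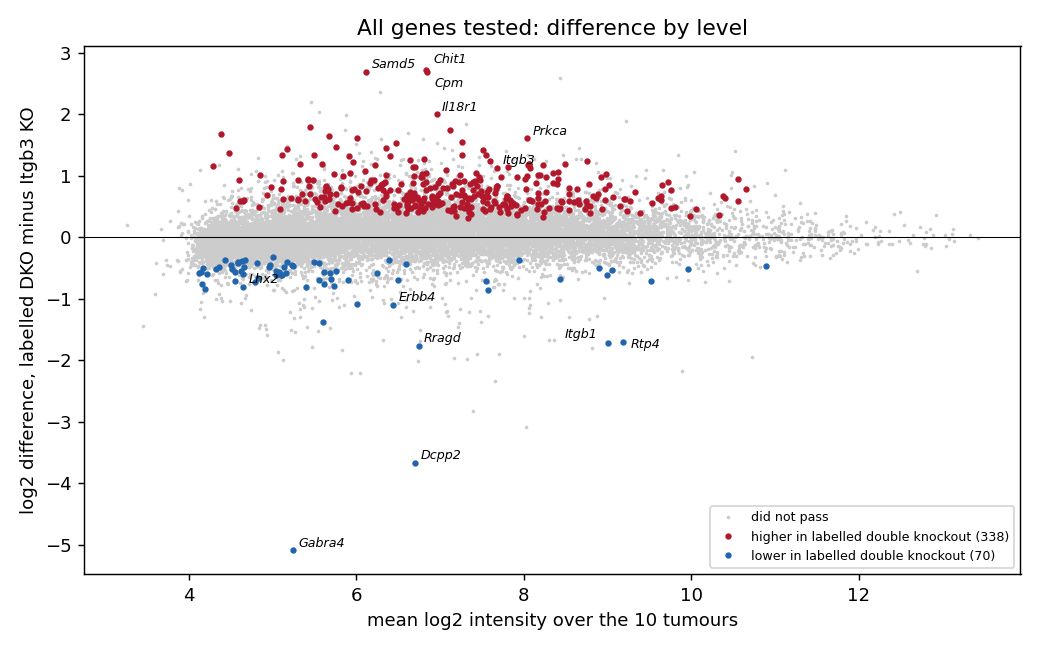
Log2 difference, labelled DKO minus Itgb3 knockout (vertical axis), against the mean log2 intensity over the 10 tumours (horizontal axis) for the 14231 genes tested. Red points are the 338 genes higher and blue points the 70 genes lower in labelled DKO tumours, with Gabra4 the lowest at −5.09.

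Of the 24 integrin subunits measured, 22 had a positive difference, with a median of 0.36 beside 0.03 over all genes. Itgb3, Itgb4, Itga2 and Itgax passed as higher and Itgb1 as lower, where 2.38% of all genes were higher and 0.492% lower. Itgb4 encodes the partner of alpha 6 in the laminin receptor of hemidesmosomes. Its level ran from 7.92 to 9.31 (median 8.86) in the labelled DKO tumours and was 7.77, 7.75, 7.70 and 7.63 in the Itgb3 knockouts. All DKO tumours were above the Itgb3 knockouts (difference 1.05, SE 0.21, 2.07-fold, adjusted p = 0.0163), and the call was lost without Itgb3 knockout replicate 1 or 4 (largest adjusted p 0.0559). Itgb4 also lies on distal chromosome 11, described below. Itga2 encodes the alpha subunit of a collagen receptor that needs beta 1. It ran from 5.52 to 6.49 (median 5.68) in the labelled DKO tumours and was 5.02, 4.64, 4.98 and 5.05 in the Itgb3 knockouts. The groups did not overlap (difference 0.93, SE 0.19, 1.91-fold, adjusted p = 0.0163), and the call was lost without Itgb3 knockout replicate 1 or 2 (largest adjusted p 0.0623). Itgax, the alpha subunit of a leukocyte integrin found on dendritic cells and some macrophages, ran from 5.38 to 7.03 (median 6.46) in the labelled DKO tumours and was 5.35, 5.63, 5.01 and 5.18 in the Itgb3 knockouts. Here 5 of 6 DKO tumours exceeded every Itgb3 knockout (difference 1.04, SE 0.28, 2.06-fold, adjusted p = 0.0493), and the call held in only 11 of 28 settings. Focal adhesion genes, which link integrins to actin, had 25 of 28 members above 0 and a median of 0.39. Of these Tgfb1i1 passed as higher (0.76, adjusted p = 0.0466, 12 of 28 settings), and the tensin Tns1 (0.69, adjusted p = 0.0655), zyxin Zyx (0.63, adjusted p = 0.0595) and Vasp (0.44, adjusted p = 0.0568) did not pass. The mean level of the list did not overlap between groups: relative to the 10 tumours it was 0.04 to 0.21 in DKO tumours and −0.29 to −0.15 in Itgb3 knockouts.

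The genes with the highest differences were of several kinds. Samd5, which encodes a sterile alpha motif protein, ran from 6.69 to 7.83 (median 7.13) in the labelled DKO tumours and was 4.21, 3.97, 4.89 and 4.92 in the Itgb3 knockouts. Every DKO tumour was above every Itgb3 knockout (difference 2.70, SE 0.36, 6.49-fold, adjusted p = 0.00193), and with values under the filter raised to it the difference was 2.55. Prkca encodes protein kinase C alpha, a lipid-activated serine/threonine kinase. It ran from 8.05 to 9.25 (median 8.84) in the labelled DKO tumours and was 7.39, 6.90, 6.93 and 7.08 in the Itgb3 knockouts. Again the groups did not overlap (difference 1.61, SE 0.24, 3.06-fold, adjusted p = 0.00346). Slc22a23, a member of the organic ion transporter family, ran from 5.95 to 7.29 (median 6.72) in the labelled DKO tumours and was 4.89, 5.45, 4.79 and 5.04 in the Itgb3 knockouts. It was the third of the 12 highest genes to pass in every setting that tested it (difference 1.62, SE 0.29, 3.08-fold, adjusted p = 0.0127). Cpm, a membrane carboxypeptidase, ran from 6.11 to 9.24 (median 8.26) in the labelled DKO tumours and was 4.72, 5.29, 6.48 and 4.45 in the Itgb3 knockouts. DKO replicate 6 fell among the Itgb3 knockouts there (difference 2.69, SE 0.61, 6.43-fold, adjusted p = 0.028, passing in 23 of 28 settings).

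Immune and matrix products made up much of the rest of that group. Chit1, a chitinase secreted by activated macrophages, ran from 5.09 to 9.88 (median 8.26) in the labelled DKO tumours and was 5.62, 6.01, 4.81 and 4.35 in the Itgb3 knockouts. DKO replicate 5 overlapped with the Itgb3 knockouts, and the spread was wide (difference 2.72, SE 0.68, 6.61-fold, adjusted p = 0.0375, passing in 18 of 27 settings). Il18r1, a subunit of the interleukin 18 receptor, ran from 7.40 to 8.17 (median 7.71) in the labelled DKO tumours and was 6.10, 5.36, 5.42 and 6.14 in the Itgb3 knockouts. The groups did not overlap in any tumour (difference 2.005, SE 0.51, 4.01-fold, adjusted p = 0.0399), and the call held in 18 of 28 settings. Il34, a ligand of the Csf1 receptor, had a difference of 1.45 with all 6 DKO tumours above the Itgb3 knockouts (adjusted p = 0.0313, 20 of 28 settings). Dsg3, a desmosomal cadherin of stratified epithelia, differed by 1.79 (adjusted p = 0.0307, 20 of 27 settings), with DKO tumours from 4.62 to 7.56 and Itgb3 knockouts from 3.44 to 4.82. Clca3a1, of the family of calcium-activated chloride channel regulators, differed by 1.68 (adjusted p = 0.0197), but all 4 Itgb3 knockouts lay under the filter, and the difference was 0.71 with such values raised to it. The collagens Col8a1 (1.74), Col12a1 (1.55) and Col14a1 (1.47) complete the 12 and are described with the matrix.

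Fewer genes were lower, and 1 stood far from the rest. Gabra4 encodes the alpha 4 subunit of the GABA-A receptor, a chloride channel known from neurons. Its level ran from 2.56 to 4.94 (median 2.90) in the labelled DKO tumours and was 8.69, 8.56, 8.96 and 6.98 in the Itgb3 knockouts. In 5 of the 6 DKO tumours it was under the filter, and no DKO tumour reached the lowest Itgb3 knockout (difference −5.09, SE 0.59, 34.0-fold lower, adjusted p = 0.00055). Counting values under the filter as equal to it gave a difference of −3.82. The level was 7.14 in the Itgb1 knockouts and 8.26 in control, so the labelled DKO tumours were the group that stood apart. Of the 4 GABA-A subunit genes measured, Gabra4 was the 1 that passed.

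Lhx2, a LIM homeobox transcription factor, ran from 4.16 to 4.59 (median 4.25) in the labelled DKO tumours and was 4.99, 5.11, 5.05 and 5.34 in the Itgb3 knockouts. All DKO tumours were below all Itgb3 knockouts (difference −0.80, SE 0.12, 1.74-fold lower, adjusted p = 0.00422). Lhx2 passed in the 27 settings that tested it. Its median in the DKO tumours lay under the intensity filter. The size of the difference therefore depends in part on values that may not be signal. Control tumours averaged 4.48, so on this gene the Itgb3 knockouts were the higher group on both sides. Erbb4, a receptor of the ErbB family with a role in milk-producing differentiation, ran from 5.50 to 6.91 (median 5.83) in the labelled DKO tumours and was 6.82, 7.50, 7.11 and 6.94 in the Itgb3 knockouts. DKO replicate 5 overlapped with the Itgb3 knockouts (difference −1.09, SE 0.28, 2.13-fold lower, adjusted p = 0.0431, passing in 17 of 28 settings), and control tumours averaged 6.36. Rragd, a Rag GTPase through which amino acids act on mTORC1, ran from 4.65 to 7.25 (median 6.38) in the labelled DKO tumours and was 7.91, 8.30, 7.48 and 7.51 in the Itgb3 knockouts. The groups did not overlap (difference −1.76, SE 0.43, 3.39-fold lower, adjusted p = 0.0341, passing in 21 of 28 settings). Fabp3, a fatty acid binding protein of muscle and lactating mammary gland, ran from 9.03 to 9.36 (median 9.25) in the labelled DKO tumours and was 9.90, 9.97, 9.96 and 9.93 in the Itgb3 knockouts. That small difference was larger than the spread within either group (difference −0.70, SE 0.17, 1.63-fold lower, adjusted p = 0.032, passing in 21 of 28 settings).

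Chn1, a Rac GTPase activating protein, had a difference of −1.37 (adjusted p = 0.0319, 20 of 27 settings), with 5 of 6 DKO tumours below the Itgb3 knockouts and DKO replicate 5 above them. Cyp4b1, a cytochrome P450, was lower in all 6 (−0.80, adjusted p = 0.0431, 17 of 28 settings). Jakmip2, a microtubule-associated protein, also separated the groups (−0.83, adjusted p = 0.019), with all 6 DKO tumours under the filter and a difference of −0.33 at it. The vomeronasal receptor gene Vmn1r36, which has close relatives in the genome and so may share probes with them, was −0.79 (adjusted p = 0.0163). Dcpp2, a salivary-type secreted protein with near-identical neighbouring copies, was −3.66, but its Itgb3 knockout values ran from 5.88 to 10.9 and the call held in 8 of 27 settings (adjusted p = 0.048 as deposited).

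Most measured matrix genes had a positive difference. Basement membrane genes, whose products form the laminin and collagen IV sheet under epithelium and endothelium, had 15 of 19 members above 0, a median of 0.38 and 4 members that passed as higher, beside 54.7% above 0 and 2.38% higher over all genes. Hspg2, the heparan sulphate proteoglycan perlecan, ran from 6.57 to 7.41 (median 7.13) in the labelled DKO tumours and was 6.36, 5.96, 6.19 and 6.10 in the Itgb3 knockouts. The groups were apart (difference 0.88, SE 0.15, 1.84-fold, adjusted p = 0.00998), and it passed in every setting. Lamb1, a laminin beta chain, ran from 6.72 to 7.10 (median 6.83) in the labelled DKO tumours and was 6.30, 5.55, 5.97 and 6.23 in the Itgb3 knockouts. It was again higher in all 6 (difference 0.86, SE 0.17, 1.82-fold, adjusted p = 0.0163), lost without Itgb3 knockout replicate 2 alone (adjusted p = 0.0557). Col4a2, a collagen IV chain, ran from 6.95 to 7.47 (median 7.14) in the labelled DKO tumours and was 6.13, 5.99, 6.11 and 6.49 in the Itgb3 knockouts. All 6 DKO tumours exceeded the Itgb3 knockouts (difference 0.98, SE 0.19, 1.98-fold, adjusted p = 0.0163), and the call was lost without Itgb3 knockout replicate 1 or 2. Nid1, nidogen 1, which bridges laminin and collagen IV, differed by 0.88 (adjusted p = 0.0376, 19 of 28 settings).

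Of the interstitial matrix genes 26 of 29 were above 0, with a median of 0.84, and 5 passed. These were Col8a1 (1.74), Col12a1 (1.55), Col14a1 (1.47), Col15a1 (0.99) and Col6a3 (0.86), with adjusted p from 0.0223 to 0.0381, and passed in 19 to 25 of the other settings. For each of these collagens 5 of 6 DKO tumours exceeded every Itgb3 knockout, and DKO replicate 5 was the exception. Col8a1, for example, ran from 6.45 to 8.74 (median 7.99) in the labelled DKO tumours and was 6.54, 4.58, 6.93 and 6.23 in the Itgb3 knockouts. Fibronectin, Fn1, ran from 8.45 to 10.70 (median 10.10) in the labelled DKO tumours and was 9.01, 5.93, 9.41 and 7.99 in the Itgb3 knockouts. It did not pass (difference 1.90, adjusted p = 0.0541), and DKO replicate 5 and Itgb3 knockout replicate 2 had the lowest value of their group. The main collagen I genes Col1a1 (1.24, adjusted p = 0.0598) and Col1a2 (1.27, adjusted p = 0.0621) did not pass either. Among proteases that cut matrix, Mmp14 (1.18, adjusted p = 0.0296, 19 of 28 settings), Adamts12 (1.05, adjusted p = 0.0163) and Adamts1 (0.84, adjusted p = 0.0348, 20 of 28 settings) passed as higher. The list of matrix proteases and inhibitors had 22 of 24 members above 0 and a median of 0.49.

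Markers of fibroblasts, the main source of interstitial collagen, had positive differences as well. Col1a1, given above with the interstitial matrix, is also a fibroblast marker, so these lists are not independent. All 19 measured members of the fibroblast list were above 0 with a median of 0.84, yet 0 passed in limma (10 at an unadjusted p under 0.05). Relative to the 10 tumours, the mean of the fibroblast list was −0.72 to 0.98 in DKO tumours and −1.57 to 0.56 in Itgb3 knockouts. Their part in the matrix result was not tested. In bulk tumour RNA, more cells of a type and more RNA per cell cannot be told apart. The median of the interstitial matrix list was 0.50 to 1.01 when each tumour was left out in turn, and that of the fibroblast list 0.47 to 1.28. Itgb3 knockout replicate 2 was low for both lists (−1.37 and −1.57), as was DKO replicate 5 (−0.58 and −0.72).

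Macrophage markers were above 0 in 22 of 22 cases (54.7% over all genes), with a median of 0.51, and 3 passed as higher (2.38% over all genes). Adgre1, which encodes the F4/80 antigen, ran from 6.71 to 7.60 (median 7.25) in the labelled DKO tumours and was 6.21, 6.17, 6.46 and 5.96 in the Itgb3 knockouts. All DKO tumours were above the Itgb3 knockouts (difference 0.98, SE 0.19, 1.97-fold, adjusted p = 0.0163), and the call was lost without Itgb3 knockout replicate 1 or 4. Cd14, the co-receptor that passes bacterial lipopolysaccharide to Tlr4, ran from 8.47 to 9.36 (median 8.97) in the labelled DKO tumours and was 7.86, 7.94, 7.58 and 7.74 in the Itgb3 knockouts. The groups were apart (difference 1.19, SE 0.24, 2.28-fold, adjusted p = 0.0182). Csf1r, the receptor that macrophages need for survival, differed by 0.98 with 5 of 6 DKO tumours above the Itgb3 knockouts (adjusted p = 0.0341, 19 of 28 settings). Its ligand gene Il34 is among the 12 highest, as given above. Tlr4 itself ran from 6.22 to 6.95 (median 6.50) in the labelled DKO tumours and was 5.72, 5.81, 5.13 and 5.78 in the Itgb3 knockouts. It also separated the groups (difference 0.93, SE 0.21, 1.91-fold, adjusted p = 0.0276). Cd14 and Tlr4 were the 2 passing members of the 16 genes on the list for LPS sensing and acute phase (12 above 0, median 0.32). The defining macrophage marker Cd68 overlapped, at 8.59 to 10.3 in DKO tumours and 9.39 to 10.1 in Itgb3 knockouts. Per tumour, the mean of the macrophage list was −0.43 to 0.63 in DKO tumours and −0.45 to −0.14 in Itgb3 knockouts.

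The other stromal and immune lists had smaller medians. Over all genes 54.7% were above 0, and 3009 of 14231 were at an unadjusted p under 0.05 in limma. The mean of the pericyte list did not overlap, at −0.03 to 0.48 in DKO tumours and −0.51 to −0.12 in Itgb3 knockouts. All 14 pericyte and smooth muscle markers were above 0 (median 0.47, 0 passing, 7 at an unadjusted p under 0.05 in limma), with Pdgfrb, the receptor that recruits pericytes, at 0.55 (adjusted p = 0.0662). Endothelial markers had 17 of 20 above 0 (median 0.30), and Ptprb, an endothelial receptor phosphatase, passed (0.84, adjusted p = 0.0313, 22 of 28 settings). Pecam1 and Cdh5 overlapped between groups. T and NK cell markers (12 measured, median 0.08), B and plasma cell markers (5 measured, median −0.20) and MHC class II and dendritic cell genes (16 measured, median 0.13) had 0, 0 and 1 passing, the last being Itgax, and 1, 1 and 4 genes at an unadjusted p under 0.05 in limma. Cidea, a lipid droplet protein, was the 1 passing member of 10 measured adipocyte markers (6 above 0, median 0.06). Cidea was higher (1.23, adjusted p = 0.0467, 11 of 28 settings). Of the defining adipocyte genes, Adipoq was under the filter on all 10 arrays. Plin1 was under it in 1 DKO tumour only, at 4.33 to 5.03 in DKO tumours and 4.5 to 5.1 in Itgb3 knockouts.

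**Figure D3:**
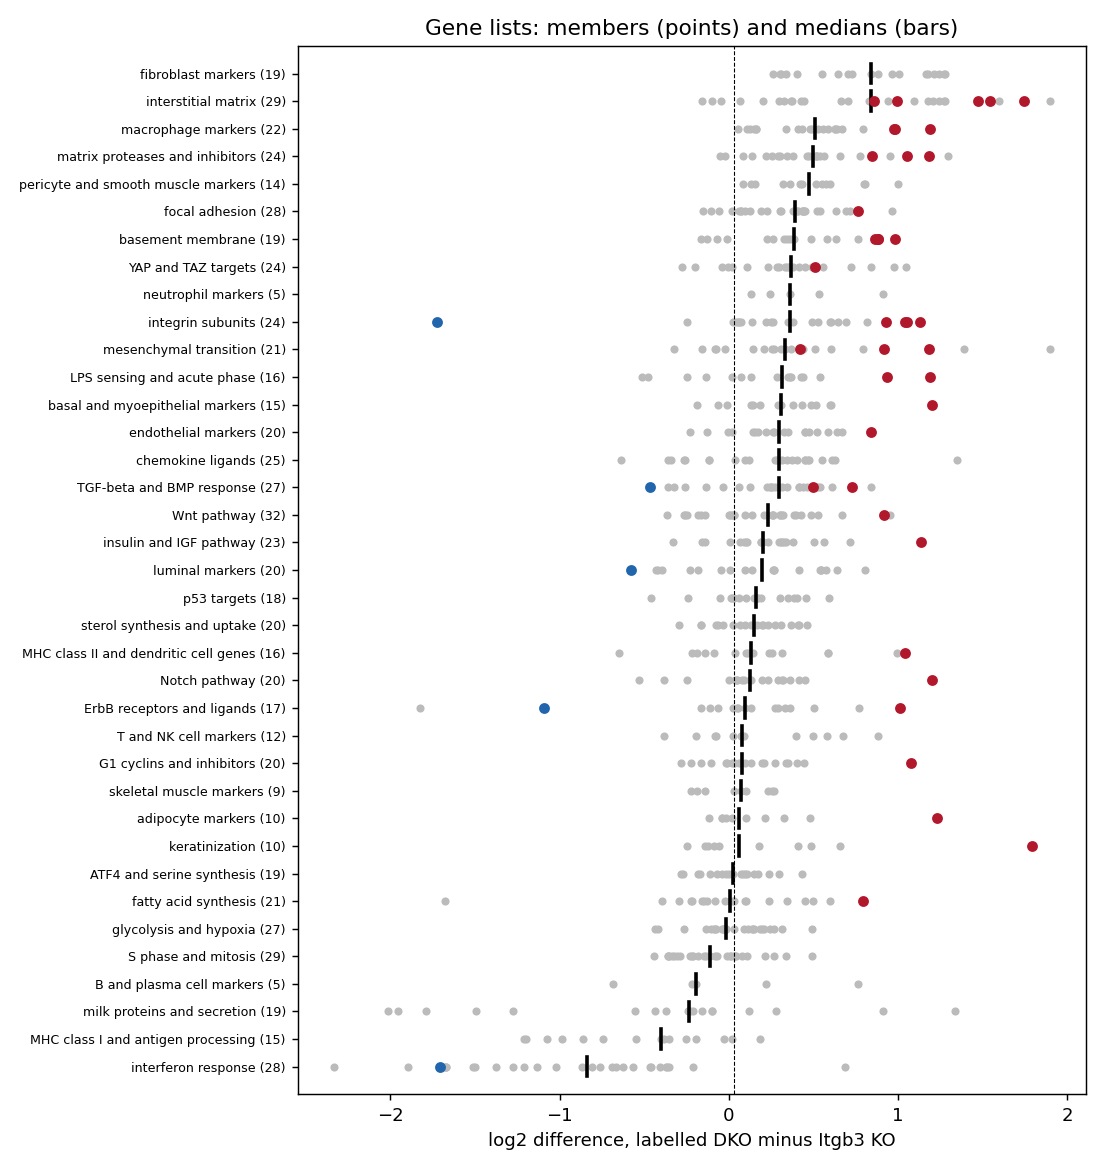
Log2 difference, labelled DKO minus Itgb3 knockout (horizontal axis), for each measured member of the gene lists with at least 5 measured members (rows, number measured in brackets). Grey points did not pass, red passed as higher and blue as lower. Black bars are list medians, from 0.84 for fibroblast markers to −0.84 for interferon response genes, and the dashed line is the median of all genes, 0.03.

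Interferon response genes formed the lowest list. Of 28 measured, 27 were below 0 with a median of −0.84, and 1 passed, with 15 at an unadjusted p under 0.05. That was Rtp4, an interferon-induced chaperone of G protein-coupled receptors, which ran from 7.18 to 9.70 (median 8.43) in the labelled DKO tumours and was 10.51, 10.63, 10.30 and 9.38 in the Itgb3 knockouts. DKO replicates 5 and 6 reached the range of the Itgb3 knockouts (difference −1.70, SE 0.44, 3.26-fold lower, adjusted p = 0.0424), and the call held in 16 of 28 settings. Usp18, which removes the ubiquitin-like protein ISG15 and damps interferon signalling, ran from 4.995 to 8.38 (median 6.48) in the labelled DKO tumours and was 10.14, 10.02, 8.93 and 7.15 in the Itgb3 knockouts. The groups overlapped and it did not pass (−2.33, SE 0.77, adjusted p = 0.0947). The antiviral GTPase gene Mx2 (−1.51, adjusted p = 0.0809) and the apoptosis regulator Xaf1 (−1.28, adjusted p = 0.107) did not pass. Relative to the 10 tumours, the list mean was −1.10 to 0.30 in DKO tumours and −0.41 to 1.23 in Itgb3 knockouts. DKO replicates 5 and 6 (0.21 and 0.30) were the high DKO tumours and Itgb3 knockout replicate 4 (−0.41) the low Itgb3 knockout. With single tumours left out the list median stayed between −1.17 and −0.59.

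Interferon acts on these genes through ISGF3 and interferon regulatory factors, which bind the interferon-stimulated response element. The letters GAAANNGAAA, read on either strand, were searched in RefSeq windows of build GRCm38.p6 from 250 bases before to 50 after each start site. Of the 20 tested interferon list genes with a window, 11 held the motif (55.0%), against 398 of 11097 tested genes (3.59%) and 3.44% of all windows. In the MHC class I list it was 3 of 13 (23.1%). The interferon list was made of genes known to respond to interferon, so its share describes the list and not these tumours. No window was held for Rtp4, Usp18 or Mx2. The 150 bases before the start site are shown for 3 list genes, to set the element beside their levels. These had the smallest p among list genes whose window held the motif. They are chr12:26456453-26456602 (minus strand) for Rsad2, chr19:34640739-34640888 (plus strand) for Ifit1 and chr4:156200819-156200968 (minus strand) for Isg15. Capitals mark the motif, and in Isg15 3 matches overlap.
Rsad2: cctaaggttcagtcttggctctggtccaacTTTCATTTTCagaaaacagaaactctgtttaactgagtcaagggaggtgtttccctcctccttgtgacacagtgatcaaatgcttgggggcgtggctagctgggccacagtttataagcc
Ifit1: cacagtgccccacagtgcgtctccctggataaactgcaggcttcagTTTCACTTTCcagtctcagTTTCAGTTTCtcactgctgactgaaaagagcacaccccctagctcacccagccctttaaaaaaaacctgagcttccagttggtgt
Isg15: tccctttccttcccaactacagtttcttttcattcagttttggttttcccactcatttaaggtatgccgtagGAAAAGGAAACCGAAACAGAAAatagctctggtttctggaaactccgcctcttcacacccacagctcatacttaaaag
Rsad2, the antiviral enzyme viperin, ran from 5.54 to 6.97 (median 6.04) in the labelled DKO tumours and was 7.97, 8.03, 6.72 and 6.35 in the Itgb3 knockouts. Ifit1, which binds viral RNA, ran from 5.22 to 8.24 (median 6.44) in the labelled DKO tumours and was 9.58, 9.62, 8.24 and 6.90 in the Itgb3 knockouts. Isg15 itself ran from 6.44 to 7.38 (median 6.79) in the labelled DKO tumours and was 8.65, 8.90, 7.92 and 6.83 in the Itgb3 knockouts. In each of the 3, 4 of the 6 DKO tumours lay below every Itgb3 knockout, while Itgb3 knockout replicate 4 was the lowest of its group. None of the 3 passed: the differences were −1.13 for Rsad2 (adjusted p = 0.112), −1.89 for Ifit1 (adjusted p = 0.142) and −1.21 for Isg15 (adjusted p = 0.185). A match to these letters describes the window and does not show a bound site.

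MHC class I and antigen processing genes, many of which respond to interferon, had 13 of 15 members below 0 (median −0.40, 0 passing, 7 at an unadjusted p under 0.05 in limma). H2-Q4, a class I gene with close paralogues that can share its probes, was at −1.20 (adjusted p = 0.0693). The immunoproteasome subunit Psmb9 was at −1.21 (adjusted p = 0.102). H2-Q4 levels ran from 6.66 to 7.40 in DKO tumours and were 8.04, 9.33, 8.28 and 7.15 in Itgb3 knockouts.

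**Figure D4:**
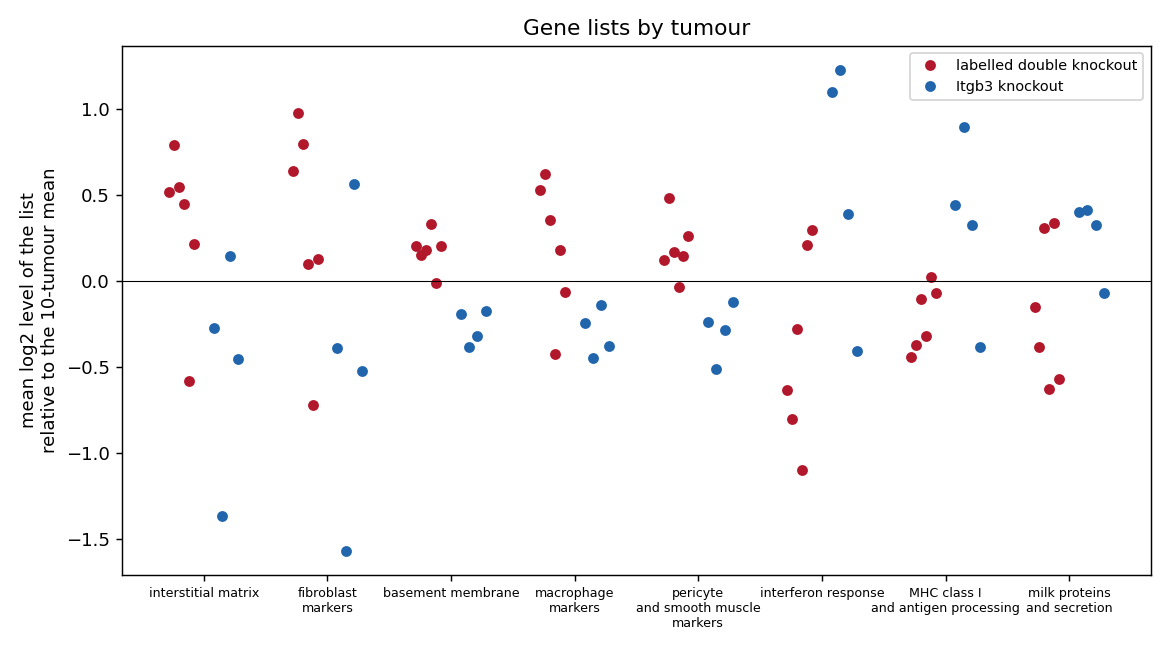
Mean log2 level of 8 gene lists relative to the mean of the 10 tumours (vertical axis), 1 point per tumour, for labelled DKO (red) and Itgb3 knockout (blue). The basement membrane list separates the groups (−0.01 to 0.33 in labelled DKO tumours, −0.38 to −0.17 in Itgb3 knockouts), and so does the pericyte and smooth muscle list. The fibroblast and interferon lists overlap.

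Epithelial lineage genes changed in few places. Luminal markers had 13 of 20 members above 0 (median 0.20), beside 54.7% over all genes. Cited1, a transcriptional co-regulator expressed in luminal cells, ran from 5.32 to 5.65 (median 5.42) in the labelled DKO tumours and was 6.22, 5.78, 5.99 and 6.12 in the Itgb3 knockouts. It was lower in all 6 DKO tumours (difference −0.58, SE 0.11, 1.49-fold lower, adjusted p = 0.0163). The luminal keratin Krt8 was higher in all 6 but did not pass (0.54, adjusted p = 0.0622). Basal and myoepithelial markers had 12 of 15 above 0 (median 0.31), with Jag1 passing. Jag1, a Notch ligand, ran from 5.73 to 6.42 (median 6.03) in the labelled DKO tumours and was 5.18, 4.90, 4.64 and 4.74 in the Itgb3 knockouts. No DKO tumour overlapped with the Itgb3 knockouts (difference 1.20, SE 0.21, 2.30-fold, adjusted p = 0.0111). It was the only passing member of the 20 Notch pathway genes measured.

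Milk protein and secretory genes had 15 of 19 members below 0 (median −0.24, 0 passing, 5 at an unadjusted p under 0.05 in limma). Over all genes 3009 of 14231 were at that threshold. The caseins Csn1s2a (−2.01, adjusted p = 0.0988) and Csn1s1 (−1.79, adjusted p = 0.104) and the alpha-lactalbumin gene Lalba (−1.95, adjusted p = 0.224) varied by several units within the DKO group. Lalba, for example, ran from 6.40 to 12.06 (median 10.23) in the labelled DKO tumours and was 12.21, 12.37, 12.34 and 10.68 in the Itgb3 knockouts. Csn1s2a averaged 5.93 in DKO tumours and 7.95 in Itgb3 knockouts, beside 5.42 in control.

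On the list for mesenchymal transition 16 of 21 members were above 0 (median 0.33) and 3 passed. They do not all act in 1 direction: Wnt5a, a non-canonical Wnt ligand (0.91, adjusted p = 0.0182), and Mmp14 are known from mesenchymal cells, whereas Grhl2 (0.42, adjusted p = 0.0463, 11 of 28 settings) is a transcription factor that maintains epithelium. Wnt5a ran from 5.02 to 6.01 (median 5.53) in the labelled DKO tumours and was 4.48, 4.79, 4.42 and 4.62 in the Itgb3 knockouts. Among targets and members of the YAP and TAZ pathway, which answers to matrix stiffness and adhesion, 20 of 24 were above 0 (median 0.37). Wwtr1, the gene of TAZ, passed (0.51, adjusted p = 0.0314, 20 of 28 settings), and its target Ccn2 did not (0.84, adjusted p = 0.0548). The list mean did not overlap, at 0.01 to 0.21 in DKO tumours and −0.27 to −0.17 in Itgb3 knockouts. TGF-beta and BMP response genes had 21 of 27 above 0 (median 0.30). Smurf2, a ubiquitin ligase of the receptor complex (0.50, adjusted p = 0.0319, 19 of 27 settings), and Ltbp4, which tethers latent TGF-beta to matrix (0.73, adjusted p = 0.0337, 19 of 28 settings), were higher, and Id2, an inhibitor of helix-loop-helix factors (−0.47, adjusted p = 0.0466, 12 of 28 settings), was lower.

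In the ErbB family, Tgfa, a ligand of the epidermal growth factor receptor, rose and Erbb4 fell. Tgfa ran from 7.28 to 7.91 (median 7.68) in the labelled DKO tumours and was 6.94, 6.66, 6.41 and 6.53 in the Itgb3 knockouts. The groups did not overlap (difference 1.01, SE 0.19, 2.01-fold, adjusted p = 0.014). The list as a whole had 12 of 17 members above 0 (54.7% over all genes) and a median of 0.09. Of the insulin and IGF pathway, 20 of 23 were above 0 (median 0.20). Igfbp4, a secreted protein that binds and holds IGFs, ran from 7.67 to 8.99 (median 8.64) in the labelled DKO tumours and was 7.39, 7.15, 7.62 and 7.40 in the Itgb3 knockouts. It was higher in all 6 DKO tumours and passed in every setting (difference 1.13, SE 0.21, 2.20-fold, adjusted p = 0.014).

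Growth and metabolic lists had medians from −0.11 to 0.16, beside 0.03 over all genes. S phase and mitosis genes had 11 of 29 members above 0 and a median of −0.11, with 0 passing in limma and 2 at an unadjusted p under 0.05. Over all genes 3009 of 14231 were at that threshold and 54.7% were above 0. Of the G1 cyclins and inhibitors Ccnd2, cyclin D2, passed (1.08, adjusted p = 0.0253), and the list had 14 of 20 above 0 (median 0.08). Fatty acid synthesis genes were balanced (11 of 21 above 0, median 0.00), with Fasn, the fatty acid synthase on distal chromosome 11, passing as higher (0.79, adjusted p = 0.0465, 12 of 27 settings). Lists of glycolysis and hypoxia (27 measured, median −0.02), ATF4 and serine synthesis (19, 0.02), sterol synthesis (20, 0.15) and p53 targets (18, 0.16) had 0 passing. At an unadjusted p under 0.05 in limma they had 3, 1, 1 and 4. Their members above 0 numbered 13, 10, 14 and 15. Chemokine ligands (25 measured, median 0.30, 7 at an unadjusted p under 0.05), skeletal muscle markers (9, 0.07, 0) and neutrophil markers (5, 0.36, 1) also had 0 passing. Of Wnt pathway genes (32, median 0.23) Wnt5a alone passed, and of keratinization genes (10, median 0.06) Dsg3.

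Genes on distal chromosome 11 were higher together. With the 1174 measured genes of the chromosome put in gene order (RefSeq table, used for order only) and cut into 20 segments, Itgb3 is gene 950 and lies in the 17th. In the last 4 segments 40 of 235 genes were higher and 0 lower (17%, against 2.38% over all genes), 188 were above 0 and the median was 0.29. In the first 16 segments 15 of 939 were higher and 7 lower, with a median of 0.00. This stretch was picked out after its values were seen and is a description with no test. The step in the values lay beside Itgb3: the 10 measured genes before it had a median of −0.07 with 0 higher, and the 10 after it a median of 0.43 with 2 higher, Ace and Dcaf7.

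The shift was present in each labelled DKO tumour. The median of the 235 genes relative to the control mean was 0.33, 0.37, 0.17, 0.28, 0.12 and 0.17 in the 6 DKO tumours, against −0.04, 0.00, 0.02 and −0.03 in the Itgb3 knockouts. It was 0.15, −0.12, 0.02 and 0.02 in Itgb1 knockouts and −0.06 to 0.05 in control. Itgb1 knockout replicate 1 (0.15) reached the range of the lower DKO tumours. Leaving Itgb3 out of the stretch gave a median of 0.29 and 39 genes. Rptor, the scaffold of mTORC1, ran from 8.08 to 8.57 (median 8.37) in the labelled DKO tumours and was 7.51, 7.58, 7.46 and 7.69 in the Itgb3 knockouts. It passed in the 27 settings that tested it (difference 0.79, SE 0.11, 1.73-fold, adjusted p = 0.00346). Dcaf7, a WD repeat adaptor of kinases and ubiquitin ligases, ran from 8.72 to 9.34 (median 9.21) in the labelled DKO tumours and was 8.24, 8.32, 8.31 and 8.13 in the Itgb3 knockouts. Ddx5, an RNA helicase, Pitpnc1, a phosphatidylinositol transfer protein, and Usp36, a nucleolar deubiquitinase, were higher by 0.78, 0.78 and 0.69 with the groups apart. Prkca, Itgb4, Smurf2, Fasn and Itgb3, named above for other reasons, lie in the same stretch. Without it the comparison had 324 passing genes (261 higher, 63 lower). Chromosome 15 came next, with 33 of 596 genes higher and 0 lower (5.54%) and a median of 0.19, where DKO replicates 1 and 2 were the high tumours (0.25 and 0.30 relative to control, against 0.01 to 0.10 in the other DKO tumours).

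**Figure D5:**
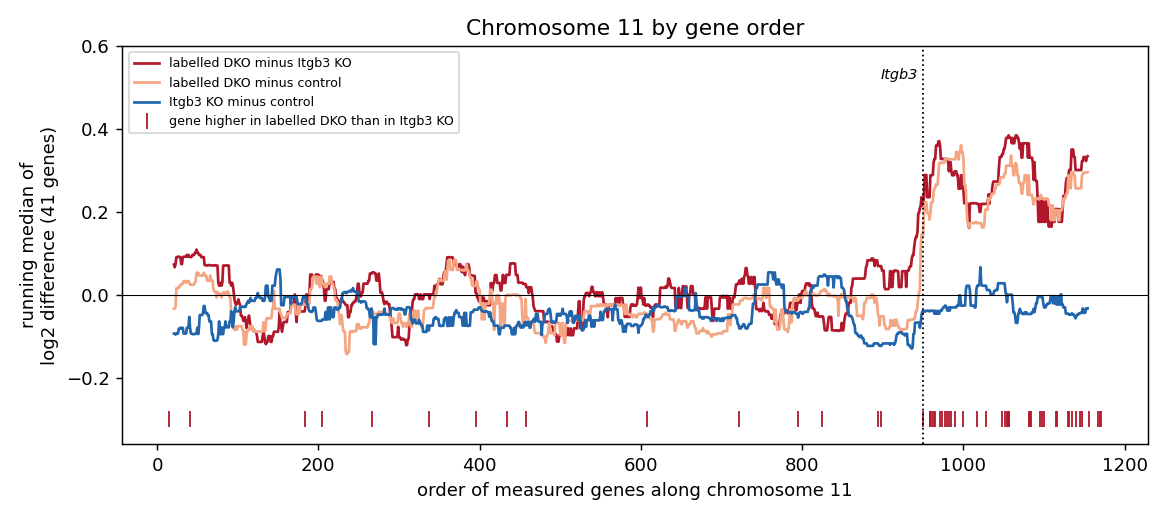
Running median of the log2 difference over 41 neighbouring genes (vertical axis) along chromosome 11 in gene order (horizontal axis). Both labelled DKO curves (red against Itgb3 knockout, orange against control) step up at Itgb3 (dotted line), while Itgb3 knockout minus control (blue) stays near 0. Ticks mark the 55 genes that passed as higher.

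Prcp, named here after its values were seen, had the smallest p after Gabra4 and Itgb1. It encodes a lysosomal prolylcarboxypeptidase and ran from 8.07 to 8.40 (median 8.30) in the labelled DKO tumours and was 6.83, 7.06, 7.63 and 6.98 in the Itgb3 knockouts. All DKO tumours were above the Itgb3 knockouts in a narrow range (difference 1.15, SE 0.14, 2.22-fold, adjusted p = 0.00055), and it passed in every setting.

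The remaining groups place these differences. With the same fit, labelled DKO tumours differed from Itgb1 knockouts in 3 genes (2 higher, 1 lower) and from control in 55 (42 higher, 13 lower), and Itgb3 knockouts differed from control in 0 (874 at an unadjusted p under 0.05). These comparisons share arrays with the one described here, so they are given side by side and not as further evidence. Samd5 averaged 7.20 in DKO tumours and 4.50 in Itgb3 knockouts, beside 4.96 in Itgb1 knockouts and 4.90 in control. Col4a2 was 7.16 in DKO tumours and 6.18 in Itgb3 knockouts, with Itgb1 knockouts at 6.46 and control at 6.60. Fn1 was 9.98 in DKO tumours and 8.08 in Itgb3 knockouts, and the Itgb1 knockouts (9.52) and control (9.22) lay between. Cd14 was 8.97 in DKO tumours and 7.78 in Itgb3 knockouts, with 7.60 in Itgb1 knockouts and 7.38 in control. The interstitial matrix list had a median of 0.51 in DKO tumours against control and −0.40 in Itgb3 knockouts against control, and the fibroblast list 0.41 and −0.47. For interferon response genes the medians against control were −1.14 in DKO tumours and −0.29 in Itgb3 knockouts.

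Whether loss of Itgb1 acted otherwise in tumours with floxed Itgb3 than in tumours with intact Itgb3 was asked by the difference of differences, DKO minus Itgb3 knockout less Itgb1 knockout minus control. No gene passed (0%, limma, 1777 at an unadjusted p under 0.05, smallest adjusted p 0.0963). Of the genes named above, Samd5 (2.64), Erbb4 (−1.97), Lamb1 (1.17), Lhx2 (−0.99), Prcp (1.01) and Usp36 (0.78) were at that smallest adjusted p. For Itgb1 itself the difference of differences was −0.26 (adjusted p = 0.742), and for Itgb3 it was 1.01 (adjusted p = 0.271).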

How the data were processed

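Total RNA of 19 mouse mammary tumours was hybridised to a whole-transcript Affymetrix array. The deposited log2 intensities were made by the authors with Affymetrix Expression Console, per the submitters' processing notes. Which version, background correction and summarization were used is not given in the sources used here. No further normalization was applied. Of 41345 probe sets, 23521 had 1 gene symbol, 1814 several and 16010 none. Probe sets with 1 symbol and a value of at least 4.38, the median of the table, on 4 or more arrays were kept, and the set with the highest mean stood for each gene, which left 14231 genes. The array design fixes depth, so the number of tumours limits precision.

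limma 3.58.1 (lmFit, eBayes, R 4.3.3) was fitted to all 19 arrays with 1 mean per group (15 residual degrees of freedom, 18.7 after moderation), with two-sided p-values adjusted by Benjamini-Hochberg across every gene tested, and was tested on simulated data. Itgb1, Itgb3 and Erbb2 were also tested by exact permutation over the 10 tumours. The named genes are the 12 highest and 12 lowest passing genes, Itgb1, Itgb3, Erbb2, each passing member of a gene list and up to 4 leading members per list. Of the passing genes, 6 higher and 23 lower were counted but left unnamed by that rule (predicted genes, clones, small RNAs, pseudogenes, olfactory receptors, antigen receptor segments). Genes named outside the rule (Dcaf7, Ace, Rptor, Ddx5, Pitpnc1, Usp36, Prcp, Rsad2, Ifit1 and Isg15, besides the marker genes of the sample check) were chosen after their values were seen. The groups, members and 39 gene lists were chosen with earlier results of these data known. Alternatives changed the samples fitted, the filter, the scaling, the probe set rule and the variance model, and left out each tumour in turn. Gene names came from the platform annotation, and 14152 of the 14231 identifiers were found in the RefSeq gene table.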

Additional observations from a re-analysis of the deposited data

Results flagged for a closer look

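In 246 sets of values (each named gene and each list mean, in the labelled DKO and in the Itgb3 knockout tumours) the tumour at either end was set against the rest of its group, and 17 had 1 tumour far from the others by Dixon's test (6.91%). Chance alone would mark about 1 in 20 such sets, and no explanation was tested.

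Labelled DKO replicate 5 was the distant tumour for 4 genes. It had the high value for Chn1, at 6.768 where the other DKO tumours ran from 4.336 to 5.207. It had the low value for the matrix genes Col14a1 (5.236, others 6.365 to 6.958) and Fn1 (8.454, others 10.05 to 10.7) and for the protease Mmp14 (7.593, others 8.533 to 9.066). Gabra4 was 4.943 in DKO replicate 2, against 2.56 to 3.196 in the other DKO tumours, and still below every Itgb3 knockout. Among list means relative to the 10 tumours, DKO replicate 6 was low for MHC class II and dendritic cell genes (-0.391, others 0.0494 to 0.296) and for TGF-beta and BMP response genes (-0.0907, others 0.0834 to 0.181). DKO replicate 1 was high for neutrophil markers (0.934, others -0.241 to 0.191).

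In the Itgb3 knockouts, the casein gene Csn1s2a was 9.278 in replicate 1 and 7.365 to 7.585 in the others, while the alpha-lactalbumin gene Lalba was 10.68 in replicate 4 and 12.21 to 12.37 in the others. Replicate 2 was low for Il34 (5.242, others 5.541 to 5.594) and Itga2 (4.641, others 4.981 to 5.047), and replicate 3 for Tlr4 (5.127, others 5.724 to 5.809). For list means, replicate 1 was high for ATF4 and serine synthesis (0.181, others -0.0965 to -0.0741) and low for the Notch pathway (-0.168, others -0.0766 to -0.0645). Replicate 4 was high for TGF-beta and BMP response (-0.0465, others -0.193 to -0.174). Replicate 3 was high for skeletal muscle markers (1.23, others -0.472 to -0.418).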

How the results depend on the processing

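The number of passing genes depended on single tumours and on the scaling, and the cause was not tested. With each tumour left out in turn it ran from 56 (without Itgb3 knockout replicate 1) to 459, with 47 to 393 higher and 7 to 90 lower. It was 1226 (1173 higher) after centring each array, 234 (181 higher) after quantile normalization and 1568 (1161 higher, 407 lower) with array weights. With the 10 arrays alone 110 genes were lower. Itgb3 stayed positive at 0.907 to 1.26 and lost its call without labelled DKO replicate 1 or Itgb3 knockout replicate 1 or 3. Leaving out the distal genes of chromosome 11, or a tumour of the other genotypes, was chosen after seeing the data.

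Some list medians moved by more than the replicate spread. Without the intensity filter they were 0.0743 for neutrophil markers, 0.0991 for LPS sensing, -0.107 for keratinization and 0.0635 for the Wnt pathway. With the filter met on all 10 arrays they were 0.327 for adipocyte markers, 0.536 for T and NK cells, 0.419 for MHC class II, 0.203 for ErbB genes and 0.421 for GABA-A subunits. Either change of filter alters which members are measured, so these medians are not over the same genes. The stricter filter removed Gabra4, so the GABA-A median rests on fewer than the 4 members measured before. Centring gave 0.473 for integrins, 0.5 for focal adhesion, 0.426 for LPS sensing, 0.236 for Notch, 0.34 for Wnt, 0.406 for TGF-beta, 0.475 for YAP and TAZ, 0.204 for ErbB and 0.31 for insulin and IGF genes. Quantile normalization gave 0.32 for focal adhesion and 0.0157 for ErbB. With single tumours left out, neutrophil markers ran from 0.218 to 0.41, insulin and IGF genes from 0.181 to 0.31, focal adhesion from 0.335 to 0.394, ErbB from 0.0427 to 0.183, LPS sensing from 0.202 to 0.323 and Wnt from 0.149 to 0.236.

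Genes near 0 changed sign. Gabrd was at 0.0159 after centring and 0.02 after quantile normalization, Ldha at 0.00239 after centring, Erbb2 at -0.0228 after quantile normalization and Tnnt3 at -0.129 with array weights. With single tumours left out, Erbb2 ran from -0.0136 to 0.144, Tnnt3 from -0.31 to 0.545, Mylpf from -0.191 to 0.624, Neb from -0.0677 to 0.478 and Ttn from -0.0939 to 0.407. No paired analysis was possible because the labels give no replicate numbers shared between the groups. Dim genes are limited by background: a difference with 1 group under the filter depends on values that may not be signal.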
